A study of Danio rerio with 6 samples.

Results

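The acidic chitinase transcript *chia.2* was followed in the larval zebrafish gut. It is 1 row, NM_213249, of the 16134 transcript rows in the count table, and no other row carries that symbol. The row was chosen by measured values of these libraries, namely its place among the 3 most abundant transcripts and its lower level after rzIl26. Its level, its share of the counts and its change are therefore given as a description, without a test. Wild-type zebrafish larvae received rzIl26, a recombinant form of the zebrafish cytokine IL-26, or BSA, bovine serum albumin, which served as the control. The wild-type line listed by the study is AB. Larvae were 5 days post fertilization (dpf) old, the proteins were delivered to gut and swim bladder by injection, and guts were dissected 1 h later. Each library held the pooled guts of 10 to 15 larvae, with 3 biological replicates per group, so differences between single fish could not be seen. Pools are listed below in the order of their replicate numbers. Library totals ran from 15156164 to 22219894 counts.

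Chitin is a polymer of N-acetylglucosamine (GlcNAc) that forms the cuticle of crustaceans and insects and the wall of fungi. Chitinases of the acidic mammalian chitinase type cut it, and in mammals they are secreted into the stomach and the airways. Zebrafish have no stomach. They carry several *chia* genes and also a chitin synthase gene, *chs1*, whose enzyme builds chitin from UDP-GlcNAc. Free GlcNAc can be phosphorylated and returned to metabolism, and UDP-GlcNAc is made from fructose 6-phosphate by the hexosamine pathway.

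After BSA, *chia.2* was among the most abundant rows of the count table. The BSA pools gave it 463686, 345404 and 449388 counts, a share of 2.22%, 2.15% and 2.27% of the library. About 1 count in 45.0, 46.5 and 44.0 came from this single row. The 95% Wilson intervals were 2.21% to 2.23%, 2.14% to 2.16% and 2.27% to 2.28%. These intervals cover counting error only, and reads were not tagged by molecule. The 3 BSA pools lay close together, with a coefficient of variation of 2.70% in TMM-scaled CPM (CPM scales the counts to a common library total, here corrected by the trimmed mean of M-values factor).

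After rzIl26 the share was lower in every replicate. It was 1.57%, 1.40% and 1.68% in these pools, from 237638, 310721 and 294228 counts, with intervals of 1.56% to 1.57%, 1.39% to 1.40% and 1.68% to 1.69%. The share averaged 2.22% ± 0.061 in BSA pools and 1.55% ± 0.144 in rzIl26 pools (SD, n = 3 each). The groups did not overlap in share. They did not overlap in TMM-scaled CPM either, where 20.9% of all rows tested had such a gap downward and 18.7% upward. The spread among rzIl26 pools was wider, with a coefficient of variation of 9.10% in TMM-scaled CPM.

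On the TMM scale the BSA pools held 24146, 22941 and 23205 CPM. The rzIl26 pools held 14666, 13334 and 16005 CPM. The lowest BSA pool was thus 1.43 times as high as the highest rzIl26 pool. These levels averaged 23431 ± 634 CPM against 14668 ± 1335 CPM (SD, n = 3 each). The log2 fold change in the edgeR fit was -0.68 (SE 0.08), a level of 0.626 times that of BSA. With library totals alone as the scale, it was -0.51 (SE 0.07), or 0.700 times. The median of all rows tested moved by 0.16 on the log2 scale between these scalings. In pooled tissue, fewer cells that make a transcript and less transcript per cell cannot be told apart.

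**Figure D1:**
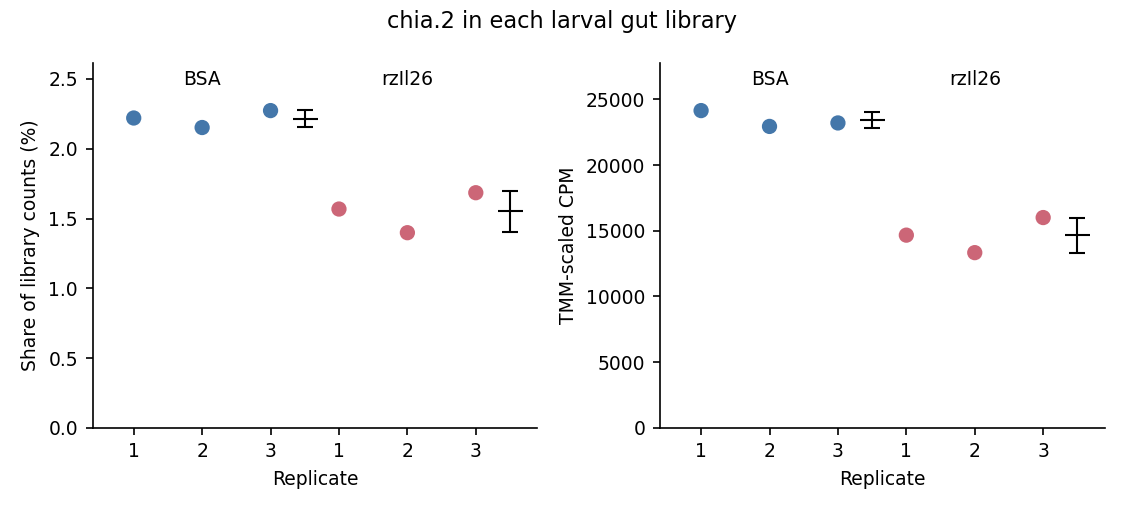
Level of *chia.2* in each of the 6 libraries, as a share of all counts (left, %) and as TMM-scaled CPM (right); points are libraries and the black marks give the group mean ± SD (n = 3). All rzIl26 points (1.40% to 1.68%, 13334 to 16005 CPM) lie below all BSA points (2.15% to 2.27%, 22941 to 24146 CPM).

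The place of *chia.2* among all rows of the count table was examined next. These ranks count reads and are not corrected for transcript length. They hold only for transcripts as counted here, where the listed enterocyte marker *fabp2* had 4 to 25 counts per library. Over the 6 libraries the 3 rows with the highest mean CPM were *apobb.1*, which encodes the structural protein of lipoproteins (24926 CPM), *eef1a1l1*, a translation elongation factor (21590 CPM), and *chia.2* (19049 CPM). The actin transcript *actb2* came next, just outside the top 3, at 14099 CPM. By counts within a library, *chia.2* ranked 3, 3 and 2 in the BSA pools and 3, 5 and 3 in the rzIl26 pools. In rzIl26 replicate 2 the pancreatic protease transcripts *cela1.6* and *prss59.2* stood above it.

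Many abundant transcripts were lower after rzIl26, and *chia.2* lost the largest share of the counts among them. The quasi-likelihood test of edgeR, with a Benjamini-Hochberg threshold of 0.05, called 980 rows higher (9.27%) and 1015 lower (9.6%) out of 10576, together 18.9%. Among the other 99 of the 100 rows with the highest mean CPM, 65 were called lower and 1 was called higher. The median log2 fold change of the 100 rows was -0.31, against 0.01 over all rows tested. With library totals alone, 28 of the 100 rows were called lower and 4 higher, with a median of -0.15. There were 42 called lower without BSA replicate 2 and 39 without rzIl26 replicate 2. The counts in these alternatives were taken over all 100 rows, *chia.2* included, unlike the 65 of the other 99. Across the whole table, 49.1% of calls were higher with TMM and 81.7% with library totals alone.

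By fold change 6 of these 100 rows lay below *chia.2*, but none of all rows in the table lost a larger share of counts. Its share changed by -0.665 percentage points, 13.9% of what the 100 rows lost together, whose summed change was -4.79 points. The next largest changes were -0.352 points for *ucp1*, a mitochondrial uncoupling protein gene, -0.349 points for *apobb.1* and -0.307 points for *cyp3a65*, a cytochrome P450 gene. *ucp1* and *cyp3a65* were named after their values were seen. Rows called lower among the 10 most abundant included *eef1a1l1* (-0.27, SE 0.05, adjusted p = 0.017), *actb2* (-0.28, SE 0.06, adjusted p = 0.024) and *eef2b* (-0.25, SE 0.06, adjusted p = 0.030). Without BSA replicate 1 or without rzIl26 replicate 2 none of these 3 stayed under 0.05 (adjusted p from 0.051 to 0.092). Further, *actb2* and *eef2b* did not stay under 0.05 without BSA replicate 2 (0.051 and 0.069), *eef2b* not without rzIl26 replicate 1 (0.052), and *eef1a1l1*, *actb2* and *eef2b* not without rzIl26 replicate 3 (0.068, 0.092 and 0.086). With library totals alone *eef1a1l1*, *actb2* and *eef2b* had adjusted p-values of 0.12, 0.24 and 0.22. With the replicate block the calls of *actb2* (0.0502) and *eef2b* (0.066) were lost as well. The pancreatic rows *cela1.6*, *prss59.2* and *prss1* were not called, with log2 fold changes of -0.12 to -0.15 (adjusted p from 0.67 to 0.71) that came to 0.06 to 0.08 without rzIl26 replicate 1 and were also above 0 with library totals alone. Neither *apobb.1* (-0.37, SE 0.15, adjusted p = 0.13) nor the gluconeogenesis gene *pck1* (-0.43, SE 0.15, adjusted p = 0.078) was called. The *pck1* groups did not overlap in TMM-scaled CPM, and it was called lower in 4 of 16 alternatives. Its adjusted p-values ran from 0.0082 to 0.22 over these, with 0.035 in DESeq2.

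**Figure D2:**
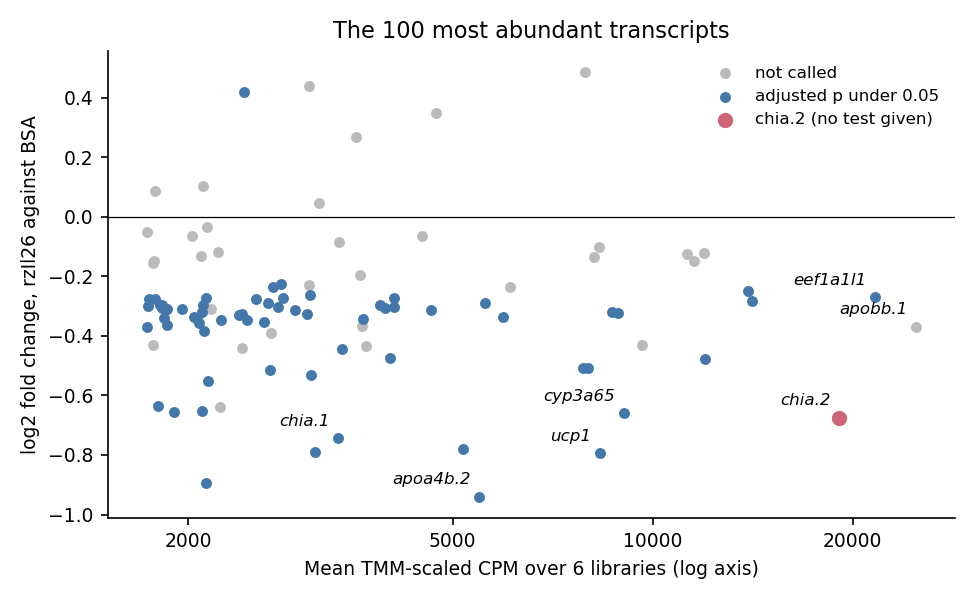
Log2 fold change (rzIl26 against BSA) of the 100 rows with the highest mean TMM-scaled CPM over the 6 libraries (log axis); blue points had an adjusted p-value under 0.05, grey points did not, and *chia.2* is drawn in red with no test. Most points lie below 0, with a median of -0.31, and *chia.2* sits at -0.68 with a mean of 19049 CPM.

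The other chitinase genes were then compared. Besides *chia.2*, the list of chitinase, chitinase-like and chitin synthase genes held 13 names, of which 8 had a row and 7 were tested. Of these 7, 2 were called lower (28.6%, against 18.9% of all rows called in either direction) and 0 were called higher, while 9.6% of all rows were called lower. The members called lower were *chia.1* and *chia.3*, 2 further acidic chitinase genes.

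By gene order in GRCz12tu (NCBI RefSeq), from which no coordinates were taken, *chia.1* and *chia.2* were direct neighbours. *chia.3* followed after *ovgp1*, which was not analysed here. Further genes of the family, *chia.4*, *chia.5* and *chia.6*, were not among the 8 genes on either side of *chia.2*.

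*chia.1* (NM_213050) was the second most abundant of the family by counts. It stood at 4428, 4096 and 4099 CPM with BSA and at 2104, 2453 and 2979 CPM with rzIl26. All rzIl26 pools lay below all BSA pools. The log2 fold change was -0.74 (SE 0.12, adjusted p = 0.011), and the adjusted p-value stayed at or under 0.044 in all 16 alternatives. *chia.3* (NM_213213) stood at 294, 341 and 317 CPM with BSA and at 178, 126 and 130 CPM with rzIl26. Its groups did not overlap either, and its log2 fold change was -1.14 (SE 0.14, adjusted p = 0.0054), with adjusted p-values up to 0.025 over the 16 alternatives. On average *chia.1*, *chia.2* and *chia.3* made up 2.64% of a BSA library and 1.83% of an rzIl26 library.

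Reads shared by these 3 related transcripts are a limit, since how the counting treated them is not given. The counts of *chia.2* per count of *chia.1* were 5.45, 5.60 and 5.66 in the BSA pools and 6.97, 5.44 and 5.37 in the rzIl26 pools. These ratios overlapped between groups. Per count of *chia.3* they were 82.0, 67.2 and 73.2 in the BSA pools and 82.6, 106 and 123 in the rzIl26 pools. The ratios to *chia.3* did not overlap between groups, but the highest BSA pool (82.0) and the lowest rzIl26 pool (82.6) lay close together. Sequence was not used here, so the part of shared reads was not tested.

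The genes *chia.4*, *chia.5* and *chia.6* had far lower counts and were not called. *chia.6* (NM_199603) averaged 27.2 ± 8.4 CPM in BSA pools against 33.2 ± 5.9 CPM in rzIl26 pools (SD, n = 3 each), with 0.30 on the log2 scale (SE 0.22, adjusted p = 0.40). *chia.5* (NM_001110041) averaged 8.96 ± 1.86 CPM in BSA pools against 7.81 ± 2.35 CPM in rzIl26 pools (SD, n = 3), with -0.21 on the log2 scale (SE 0.24, adjusted p = 0.59). In both, the groups overlapped. *chia.4* (NM_200446) had 0 to 3 counts per library and was below the filter. The difference in change between these genes and *chia.1*, *chia.2* and *chia.3* was not tested.

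The chitin synthase transcript *chs1* (NM_001316326), whose enzyme acts in the opposite direction, had nearly the same mean in both groups. It stood at 1657, 1582 and 1566 CPM with BSA and at 1853, 1469 and 1505 CPM with rzIl26. The groups overlapped, and the log2 fold change was 0.01 (SE 0.10, adjusted p = 0.97). It ran from -0.11 to 0.17 over the alternatives. Within each library, *chia.2* had 14.6, 14.5 and 14.8 counts per *chs1* count in the BSA pools. It had 7.92, 9.08 and 10.6 in the rzIl26 pools. This ratio, chosen after the values were seen, is a description that does not depend on the scaling between libraries.

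Genes of enzymes that act on chitin fragments, and a chitinase-like gene, were not called lower. *ctbs*, a lysosomal chitobiase gene, stood at 8.38, 7.11 and 6.25 CPM with BSA and at 12.6, 8.45 and 9.52 CPM with rzIl26. The groups did not overlap, but the log2 fold change of 0.49 (SE 0.19, adjusted p = 0.11) was not called. It passed with library totals alone (0.65, adjusted p = 0.044). *chid1*, a chitinase-like gene, averaged 19.9 ± 2.8 CPM in BSA pools against 22.4 ± 2.0 CPM in rzIl26 pools (SD, n = 3; log2 change 0.17, SE 0.13, adjusted p = 0.38). *hexb*, which encodes a subunit of lysosomal hexosaminidase, had 49.9 ± 2.0 CPM and 53.0 ± 5.5 CPM (SD, n = 3; log2 change 0.08, SE 0.09, adjusted p = 0.57).

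**Figure D3:**
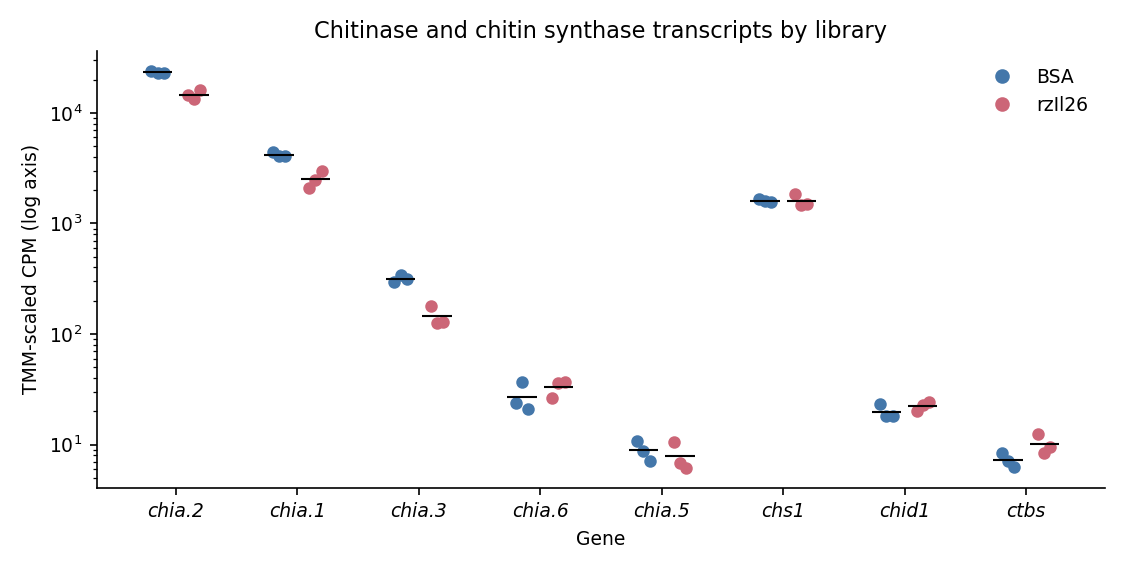
TMM-scaled CPM (log axis) of *chia.2* and the 7 tested chitinase, chitinase-like and chitin synthase transcripts in each library; blue points are BSA, red points rzIl26, and black lines are group means (n = 3). The rzIl26 points of *chia.2*, *chia.1* and *chia.3* lie below their BSA points, while those of *chs1*, *chia.5*, *chia.6* and *chid1* overlap with BSA.

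The pathway that makes and recycles GlcNAc moved in both directions. Of 22 names in this list 20 had a row and 16 were tested, with 4 called higher and 2 called lower (37.5%, against 18.9% of all rows). The median log2 fold change was 0.12, against 0.01 over all rows. The members called higher were all on the route to UDP-GlcNAc. *gfpt1*, which encodes the entry enzyme of the hexosamine pathway, stood at 15.9, 16.5 and 16.8 CPM with BSA and at 25.2, 27.2 and 26.4 CPM with rzIl26. Every rzIl26 pool was above every BSA pool (log2 fold change 0.68, SE 0.08, adjusted p = 0.0054). Its relative *gfpt2*, which catalyses the same step, rose from 205 ± 6 CPM to 276 ± 15 CPM (SD, n = 3; 0.43, SE 0.07, adjusted p = 0.011).

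*gnpnat1*, the gene of the acetyltransferase that follows, stood at 38.3, 44.0 and 39.6 CPM with BSA and at 64.7, 72.4 and 61.0 CPM with rzIl26. It rose without overlap (0.70, SE 0.10, adjusted p = 0.0072). *uap1*, whose enzyme forms UDP-GlcNAc, rose from 96.6 ± 1.7 CPM to 137 ± 13 CPM (SD, n = 3; 0.50, SE 0.09, adjusted p = 0.012). The mutase gene between these steps, *pgm3*, was not called (-0.02, SE 0.09, adjusted p = 0.89).

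The members called lower were *amdhd2* and *nagk*, which return GlcNAc to metabolism. *amdhd2*, a GlcNAc 6-phosphate deacetylase gene, stood at 117, 117 and 125 CPM with BSA and at 88.9, 76.2 and 78.5 CPM with rzIl26. The groups did not overlap (-0.56, SE 0.08, adjusted p = 0.0091). *nagk*, the GlcNAc kinase gene, fell from 44.6 ± 3.7 CPM to 33.6 ± 3.1 CPM (SD, n = 3; -0.41, SE 0.10, adjusted p = 0.033). The *nagk* call was lost without BSA replicate 2 or 3 or rzIl26 replicate 2 or 3 (adjusted p from 0.085 to 0.10), with library totals alone (0.17) and with the replicate block (0.063). The calls of the other 5 genes were kept in all 16 alternatives, with adjusted p-values up to 0.045. *uap1* and *nagk* lay outside the naming rule and were chosen after their values were seen. Another member of the list, *oga*, was not called (-0.74, SE 0.22, adjusted p = 0.052), though its rzIl26 pools lay below its BSA pools.

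**Figure D4:**
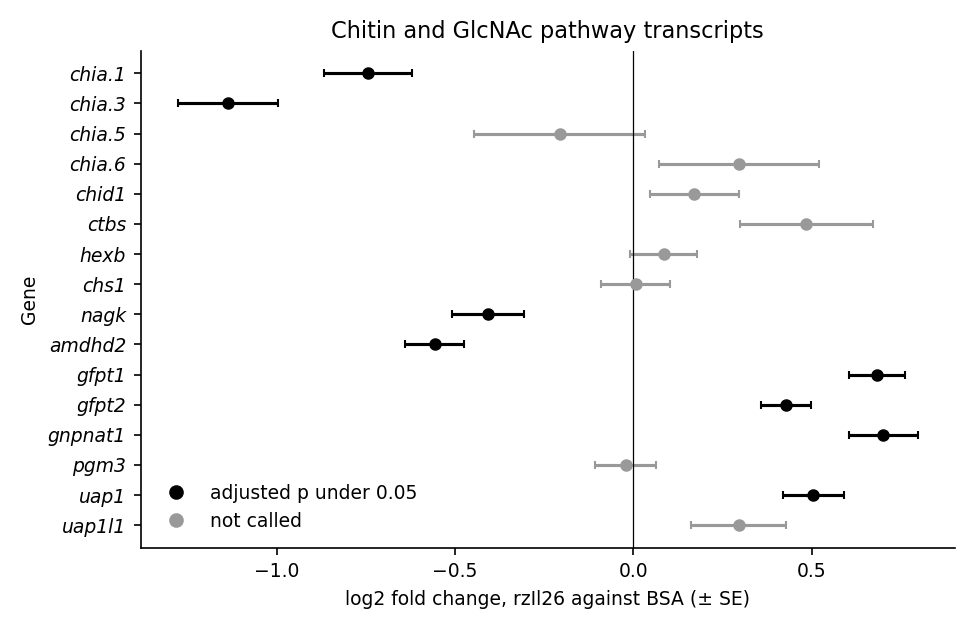
Log2 fold change ± SE (rzIl26 against BSA, edgeR) of the tested chitinase, chitinase-like and chitin synthase transcripts and of selected GlcNAc pathway transcripts. Other tested members of the GlcNAc list, among them *oga*, are not drawn. Black points had an adjusted p-value under 0.05 and grey points did not. *chia.1*, *chia.3*, *nagk* and *amdhd2* lie to the left of 0, and *gfpt1*, *gfpt2*, *gnpnat1* and *uap1* to the right.

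In the mouse lung, acidic chitinase is known to be induced by the type 2 cytokine IL-13 through STAT6. Of 12 tested genes of a type 2 signalling list, 2 were called higher and 0 lower (16.7%, against 18.9% of all rows). The receptor gene *il13ra1* stood at 47.1, 54.1 and 46.3 CPM with BSA and at 82.7, 88.8 and 70.1 CPM with rzIl26. It rose without overlap (0.71, SE 0.11, adjusted p = 0.010). The feedback inhibitor gene *socs1a* rose from 22.2 ± 4.3 CPM to 34.2 ± 6.1 CPM (SD, n = 3; 0.63, SE 0.18, adjusted p = 0.046). Its call was lost without BSA replicate 1 or 3 or rzIl26 replicate 1 or 2 (adjusted p from 0.072 to 0.13) and with liver content as a covariate (0.059). The factor gene *stat6* had 17.9 ± 1.3 CPM and 17.9 ± 3.2 CPM (SD, n = 3; adjusted p = 0.99). *il13* itself was barely counted, at 0.939 ± 0.722 CPM and 1.78 ± 0.23 CPM (SD, n = 3, adjusted p = 0.21), and *il4* had 0 counts in all 6 libraries. The listed islet marker *ins* and exocrine pancreas marker *cpb1* had 0 counts in all 6 libraries too. A count of 0 here need not mean that a transcript was absent.

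In a list of genes of gut lumen defence, the genes called were all higher. Of 15 tested genes of this lumen defence list, 4 were called higher and 0 lower (26.7%). Of all rows, 18.9% were called in either direction and 9.27% were called higher. They were the NADPH oxidase genes *nox1* (1.84, SE 0.34, adjusted p = 0.014) and *noxo1a* (3.48, SE 0.44, adjusted p = 0.0056), the acute phase gene *saa* (1.83, SE 0.28, adjusted p = 0.0099) and the lectin gene *itln3* (3.13, SE 0.90, adjusted p = 0.0497). The *itln3* call was lost without BSA replicate 1 or 3 or rzIl26 replicate 2 or 3 (adjusted p from 0.11 to 0.15) and with RLE factors (0.0502). Its log2 fold change was 2.63 without BSA replicate 1 and 4.47 without BSA replicate 2. *itln3* stood at 2.40, 25.5 and 6.45 CPM with BSA and at 27.1, 138 and 129 CPM with rzIl26. The high pool among the BSA libraries and the high pools among the rzIl26 libraries were those high in liver markers, and with liver content as a covariate the log2 fold change was 2.55 (adjusted p = 0.0048). After rzIl26 these 4 averaged 21.7 CPM (*nox1*), 85.2 CPM (*noxo1a*), 5.13 CPM (*saa*) and 98.2 CPM (*itln3*). These levels were far below the 14668 CPM of *chia.2*. The summed level of the 20 listed genes with a row was 547 ± 94 CPM after BSA and 889 ± 94 CPM after rzIl26 (SD, n = 3). Its largest members were not called, namely *pla2g1b* (means of 320 CPM after BSA and 377 CPM after rzIl26) and *alpi.2* (158 CPM and 244 CPM). Of these, *pla2g1b* was also in the list of exocrine pancreas markers.

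Markers of the cells in the pools were set beside *chia.2*. Enterocytes are the absorptive cells of the gut lining. Of 17 tested enterocyte markers 4 were called lower and 0 higher (23.5%, against 18.9% of all rows), with a median log2 fold change of -0.29. Those called were *apoa4b.2* (-0.94, SE 0.09, adjusted p = 0.0039), *fabp1b.1* (-0.79, SE 0.10, adjusted p = 0.0057), *rbp2a* (-0.59, SE 0.07, adjusted p = 0.0054) and *apoa4b.1* (-0.51, SE 0.08, adjusted p = 0.011), which carry lipids or retinoids. The microvillus gene *vil1* had 3089 ± 188 CPM and 3192 ± 162 CPM (SD, n = 3; log2 change 0.05, SE 0.07, adjusted p = 0.68). Per *vil1* count, *chia.2* had 7.55, 7.99 and 7.26 counts in the BSA pools and 4.36, 4.38 and 5.05 in the rzIl26 pools, a description also chosen after the values were seen. Per count of *apobb.1*, of the same list, *chia.2* had 0.82, 0.73 and 0.99 counts in the BSA pools. The rzIl26 pools had 0.59, 0.76 and 0.70, so these ratios overlapped between groups. Per *eef1a1l1* count the values were 0.99, 0.98 and 1.01 with BSA and 0.75, 0.68 and 0.82 with rzIl26, without overlap. The summed enterocyte level was 66908 to 73587 CPM after BSA and 47854 to 61410 CPM after rzIl26, and its part in the *chia.2* level was not tested.

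Liver markers divided the pools in another way. Of 17 tested liver markers 0 were called (against 18.9% of all rows), and 2 had a log2 fold change below 0. Their summed level was 5937, 14149 and 5759 CPM in the BSA pools and 5197, 15264 and 15811 CPM in the rzIl26 pools. As a description with no test, the log2 ratio of *chia.2* was -0.69 among the pools low in liver markers, where rzIl26 replicate 1 was the single rzIl26 pool. It was -0.65 among those high in them, where BSA replicate 2 was the single BSA pool. All rzIl26 pools lay below all BSA pools, so any split of the pools had to give a value below 0. In the fit with liver content as a covariate the log2 fold change of *chia.2* was -0.67 (SE 0.08). Exocrine pancreas markers summed to 48662 to 67017 CPM after BSA and 34704 to 61274 CPM after rzIl26, with 0 of 16 called (against 18.9% of all rows). Of 12 tested fin fold and epidermis markers 4 were called higher and 0 lower (against 9.27% of all rows called higher), and the list summed to 1584 to 1808 CPM after BSA and 1958 to 2207 CPM after rzIl26. Leukocyte markers summed to 57.7 to 66.4 CPM after BSA and 81.9 to 116 CPM after rzIl26, with 1 of 6 called higher (against 9.27% of all rows). That gene was *mmp9*, a matrix metalloproteinase gene (18.9 ± 1.0 CPM to 55.7 ± 15.7 CPM, SD, n = 3; log2 change 1.57, SE 0.19, adjusted p = 0.0054), while 4 of the 6 had a log2 fold change below 0. The leukocyte sum averaged 60.6 CPM after BSA and 96.8 CPM after rzIl26, a rise that *mmp9* alone made up. The macrophage gene *mpeg1.1* had 0 counts in all 6 libraries, while *csf1ra*, of the same list, had 80 to 141 per library. The part of these marker lists in the *chia.2* level was not tested.

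Transcripts with a pattern like that of *chia.2* were listed among the other 8485 rows with a mean of at least 50 counts. The measure was Pearson's r of log2(CPM + 1) over the 6 libraries, which share their group difference and their scaling, and it is given as a description. The 6 highest values were 0.998 for *agmo*, an alkylglycerol monooxygenase gene, 0.998 for *dcaf11*, of a ubiquitin ligase receptor, 0.998 for *cyp46a1.3*, a cytochrome P450 gene, 0.998 for *slco2b1*, an organic anion transporter gene, 0.996 for *slc27a1a*, a fatty acid transporter gene, and 0.996 for *hacd2*, of fatty acid elongation. *agmo* stood at 528, 521 and 518 CPM with BSA and at 320, 296 and 346 CPM with rzIl26, and so kept the order of *chia.2* among the rzIl26 pools. Its log2 fold change was -0.71 (SE 0.07). There were 480 rows with r of at least 0.95. *chia.1* had r = 0.95 and *chia.3* r = 0.93, ranks 442 and 657 of 8485, so the neighbouring chitinase genes were not the closest matches.

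Within groups the match was another one. For deviations from the group means, the 4 highest values were 0.999 for *lin9*, a cell cycle regulator gene, 0.994 for *tuba8l2*, a tubulin gene, 0.993 for *fundc1*, of mitophagy, and 0.991 for *zgc:56235*. By this measure *chia.1* had 0.57, *chs1* 0.17, *chia.3* -0.01 and the protease gene *prss1* -0.02. With 6 libraries in 2 groups such values rest on few points.

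Genes around *chia.2* were examined as well, 8 on each side in the gene order of the name table. Besides *chia.1* and *chia.3* there were 7 of them with a tested row, and 0 were called (against 18.9% of all rows). The nearest on either side were *zc3h11a* (log2 fold change 0.03, SE 0.09, adjusted p = 0.85) and *cntn2*, a neural adhesion gene with 5 to 14 counts per library (0.69, SE 0.37, adjusted p = 0.23). The stress gene *trib3* had 0.46 (SE 0.14, adjusted p = 0.055).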

How the data were processed

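Poly(A) RNA of dissected guts was sequenced by the authors as stranded paired-end libraries and aligned to danRer11. The authors deposited raw whole-number counts per RefSeq transcript, 1 column per library, and the counting tool and annotation release are not given in the sources used here. Symbols for 15776 of 16134 rows came from an NCBI RefSeq table (GRCz12tu). Columns were matched to samples by library name, and groups were taken from the titles. Transcript lengths and sequences were not used.

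Analysis was performed in R 4.3.3 with edgeR 4.0.16. Rows were kept by filterByExpr (minimum count 10). The quasi-likelihood test used TMM factors and a model with the group alone. Benjamini-Hochberg adjustment ran over 10576 rows, with a threshold of 0.05, and standard errors were derived from the F statistic. The p-values test the group difference against the spread between pools. The script was tested on simulated data.

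The gene, lists and tests were chosen with earlier results of these data known. Named genes were *chia.2*, the chitinase list, the 10 most abundant rows, the 6 and 4 rows most like *chia.2*, and up to 4 called genes per list. Neighbours of *chia.2* and further listed genes that were not called lay outside this rule. Among the latter were *pgm3*, *hexb*, *oga*, *stat6*, *il13*, *il4*, *pla2g1b*, *alpi.2*, *vil1*, *fabp2*, *csf1ra*, *mpeg1.1*, *galnt7* and *ctsba*. 1 of the abundant rows is not reported here. Lists are described by counts and medians, with a gene of several rows taken at its largest row. Alternatives were RLE, upper-quartile or no scaling factors, other filters, DESeq2 1.42.0, limma-voom (limma 3.58.1), the replicate block, a liver covariate, genes with 1 row, and leaving out each library.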

Additional observations from a re-analysis of the deposited data

How the results depend on the processing

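The log2 fold change of *chia.2* moved by more than the spread between replicates only with library totals alone (-0.51), and otherwise ran from -0.74 to -0.61, the range of the fits that left out 1 library. It was -0.68 with the replicate block. Deviations of same-numbered libraries had r = 0.38, 0.18 and -0.02 in the 3 pairs. These 3 values are too few to decide whether the numbers pair the libraries. Counts of calls over the table were 1783 higher and 400 lower with library totals alone. Without 1 library they ran from 339 to 874 higher and from 398 to 940 lower. Leaving out BSA replicate 1, 2 or 3 gave 339, 481 or 453 higher and 398, 497 or 525 lower, and leaving out rzIl26 replicate 2 gave 404 higher and 420 lower. The type 2 list had 4 calls with library totals alone and 1 to 2 without 1 library, 1 each without BSA replicate 1, BSA replicate 3 or rzIl26 replicate 2. The chitinase list had 2 or 3 calls, the GlcNAc list 5 to 8 and the lumen defence list 3 to 6 in all 16 alternatives. The cause of these differences between fits was not tested. The split by liver markers and the counts over the 100 most abundant rows were added after the data were seen. With 3 pools per group, rare transcripts such as *chia.4* and *il13* could not be followed.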

Other observations

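Of 10 names in the goblet cell list only 3 had a row, and the listed mucin genes were not among them. Of these 3 tested markers 2 were called higher and 0 lower (against 18.9% of all rows called in either direction). *agr2*, which encodes a protein disulfide isomerase of mucus-secreting cells, stood at 81.7, 118 and 107 CPM with BSA and at 182, 187 and 146 CPM with rzIl26 (log2 fold change 0.75, SE 0.16, edgeR adjusted p = 0.019), with no overlap of the pools. The secretory factor gene *creb3l1* rose from 4.77 ± 0.82 CPM to 7.61 ± 1.22 CPM (SD, n = 3; 0.68, SE 0.18, adjusted p = 0.042). The remaining marker, *galnt7*, a gene of mucin-type glycosylation, was not called, with 84.6 ± 2.1 CPM in BSA pools against 71.7 ± 5.2 CPM in rzIl26 pools (SD, n = 3; -0.24, SE 0.08, adjusted p = 0.076), and its pools did not overlap. Of 6 tested markers of lysosome-rich enterocytes, the cells that take up protein, *ctsl.1* (0.42, SE 0.11, adjusted p = 0.037) and *tmigd1* (0.65, SE 0.15, adjusted p = 0.024) were called higher and 0 were called lower (against 18.9% of all rows). *ctsba*, a cathepsin B gene, was not called (-0.18, SE 0.07, adjusted p = 0.12), and its rzIl26 pools lay below its BSA pools. The calls of *agr2*, *creb3l1*, *ctsl.1*, *tmigd1* and *mmp9* were not followed over the alternatives.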
